A study of Mus musculus with 75 samples.

Results

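CTCF sites at which no cohesin peak was called were examined in mouse chromatin between mitosis and late G1. They were the late-G1 CTCF peaks whose fold enrichment reached or exceeded the list median of 18.1 and that shared no base with any peak of the 6 lists for Rad21, a cohesin subunit. Of 33499 late-G1 CTCF peaks, 16752 were this strong, and 3126 of them had no Rad21 peak in any list. These 3126 sites were 18.7% of the strong peaks and 9.33% of all late-G1 CTCF peaks. The comparison sites were the 13127 strong peaks (78.4%) that shared at least 1 bp with a late-G1 Rad21 peak. The remaining 499 strong peaks (2.98%) met Rad21 only in another list and formed a class of their own. The sites were chosen by their late-G1 CTCF fold enrichment and by the absence of Rad21 overlap, so both are given as description.

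The cells were G1E-ER4, a subline of the GATA1-null mouse proerythroblast line G1E from strain 129, with no other treatment than the cell cycle arrest named in the labels. Arrest used 200 ng/ml nocodazole over 7 to 8.5 h, after which they were released and sorted as pro-metaphase (0 min), ana/telophase (25 min), early G1 (60 min), mid G1 (120 min) and late G1 (240 min). CTCF chromatin immunoprecipitation (ChIP-seq) had 13 samples (pro-metaphase 3, every other group 2), and Rad21 ChIP-seq had 12 with 2 per group; asynchronous cells were the sixth group for both. In situ Hi-C, which reads contacts between stretches of DNA, had 10 samples with 2 per stage. All groups were of this 1 cell line, derived from the GATA1-null line G1E. RNA polymerase II ChIP-seq, input and Capture-C were not analysed here.

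CTCF is a zinc finger protein that binds DNA at an oriented motif. Cohesin is a ring complex that extrudes loops of DNA, and in the loop extrusion model it is halted where it meets CTCF in the facing orientation. Cohesin then piles up at such sites in ChIP-seq, and the paired sites form the anchors of chromatin loops. A stripe in a contact map is a line of contacts from 1 anchor to a long stretch of neighbouring DNA, and a domain boundary separates regions that contact themselves more than each other. Cohesin leaves most chromosome arms in early mitosis and is loaded again as cells enter G1, while CTCF is lost from many but not all sites in mitosis.

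The replicates of a group were merged into 1 list, so no value has a spread between replicates and no comparison has a test. Read depth is unknown, and stages differ in list length: the pro-metaphase Rad21 list had 596 peaks and the ana/telophase list 7995, followed by early G1 with 8694, mid G1 with 15762 and late G1 with 18958, and 13625 were called in asynchronous cells. A site without a Rad21 peak is therefore a site where none was called, not one shown to lack cohesin. Shares are given with exact 95% binomial intervals, which cover counting error only and treat sites as independent although neighbours can share an anchor or a boundary. Positions are those of genome build mm9. No genome or annotation of this build was at hand, so genes and motifs at the sites were not analysed here.

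Sites without Rad21 were concentrated among the less strong of the strong peaks. Their median late-G1 CTCF fold enrichment was 23.5 (interval from order statistics 23.2 to 23.8), beside 28.9 (28.8 to 29.2) at the comparison sites. The fold values ranged from 18.1 to 61.6 and from 18.1 to 71.1. When all strong peaks were cut into 10 strata of equal numbers by fold enrichment, sites without Rad21 made up 35.9% of the weakest stratum (578 sites) and 6.42% of the strongest (109 sites). Below the median, 11142 of 16747 peaks (66.5%) had no Rad21 peak in any list. Where a value of the comparison sites is called weighted, each stratum of fold enrichment counted as much as it did among the sites without Rad21. After weighting both groups had a median fold enrichment of 23.5, and their peaks had median widths of 314 and 322 bp. The deposited −log10 p was not made equal by this weighting, with medians of 91.4 and 103.

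The 5 strongest of these sites that were called in all 6 CTCF lists are given as extremes, not as typical sites. The median late-G1 fold enrichment of the sites without Rad21 was 23.5, and 1662 of them (53.2%) were in all 6 lists. At chr17:56175965-56176461 the fold enrichment was 52.4 in pro-metaphase and 54.1 in ana/telophase, then 53.3 in the early-G1, 66.7 in the mid-G1 and 61.6 in the late-G1 list, and 72.9 in asynchronous cells. This site was high in every list, and its nearest Rad21 summit of any list was 5.59 kb away. At chr12:70461631-70461966 the values in the same order were 23.4, 60.3, 73.0, 56.4, 60.5 and 70.8, and at chr2:119372633-119373075 they were 25.6, 57.5, 68.4, 60.8, 59.9 and 46.7. At chr7:52689638-52690469 they were 33.7, 61.2, 65.4, 57.4, 59.0 and 64.5, and at a site on chromosome 18 they were 68.3, 32.9, 61.9, 63.2, 58.7 and 69.5. Pro-metaphase was the lowest of the 6 lists at 4 of these 5 sites, and ana/telophase was the lowest at the site on chromosome 18. Each list was scaled on its own, so a lower value in 1 list is not a measured loss of binding.

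At the threshold of strength, 3 sites with a late-G1 fold enrichment of 18.09 were just inside it, at chr6:125060993-125061260, chr2:167853913-167854160 and chr2:105640102-105640385. Just outside it were Rad21-free peaks at chr1:134313941-134314282 with 18.08, and at chr10:110197680-110198070 and chr2:156308024-156308398 with 18.04 each. The limit of overlap with Rad21 was sharper. Only 3 of the 3126 sites had a Rad21 peak of any list within 100 bp of their edges, with gaps of 72 bp at chr9:121606961-121607199, 73 bp at chr11:78833345-78833697 and 79 bp at chr11:94727514-94727802. On the other side, the median overlap of a comparison site with its Rad21 peak was 283 bp, and 1 of 13127 shared less than 50 bp, the site at chr16:32813471-32813806 with 7 bp. The next smallest overlaps were 117 bp at chr2:164169523-164169759 and 143 bp at chr11:19972274-19972516.

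All 3126 sites were also called as CTCF peaks in early G1 and in mid G1 and 3125 were called in asynchronous cells, beside 91.8%, 96% and 91.1% of all late-G1 CTCF peaks. In those 3 lists the comparison sites were called at 99.8%, 100% and 100.0% after weighting, so both kinds of site were nearly always found. Their median fold enrichment in these lists was 26.7 (early G1), 26.9 (mid G1) and 30.4 (asynchronous). The weighted medians of the comparison sites were 26.4, 28.2 and 30.1.

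In pro-metaphase, sites without Rad21 were more often called as CTCF peaks than equally strong sites with Rad21. A pro-metaphase CTCF peak was found at 1664 of the 3126 sites, 53.2% (51.5 to 55.0), beside a weighted 43.6% (42.6 to 44.5) of the comparison sites. Over all late-G1 CTCF peaks the share was 33.7%. The difference was 9.64 percentage points (95% interval from counting error 7.76 to 11.5). This order depended on weighting by strength: unweighted, 7519 of the 13127 comparison sites (57.3%) had a pro-metaphase peak, and the difference was −4.05 points. With strength taken as −log10 p, which set both the strong peaks and the strata, it was 17.2 points. That compared another set of 2892 sites without Rad21 (56.4%) with 13365 comparison sites (weighted 39.3%). With strata of the asynchronous fold enrichment, an alternative added after the data had been seen, the difference was 5.80 points. The order also did not hold against every class of strong sites with Rad21. Weighted to the same strength, the share was between 39.0% and 45.2% at sites in 1 to 4 Rad21 lists. It was 53.2% at the 4801 sites in 5 lists and 72.4% at the 427 sites in all 6.

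**Figure D1:**
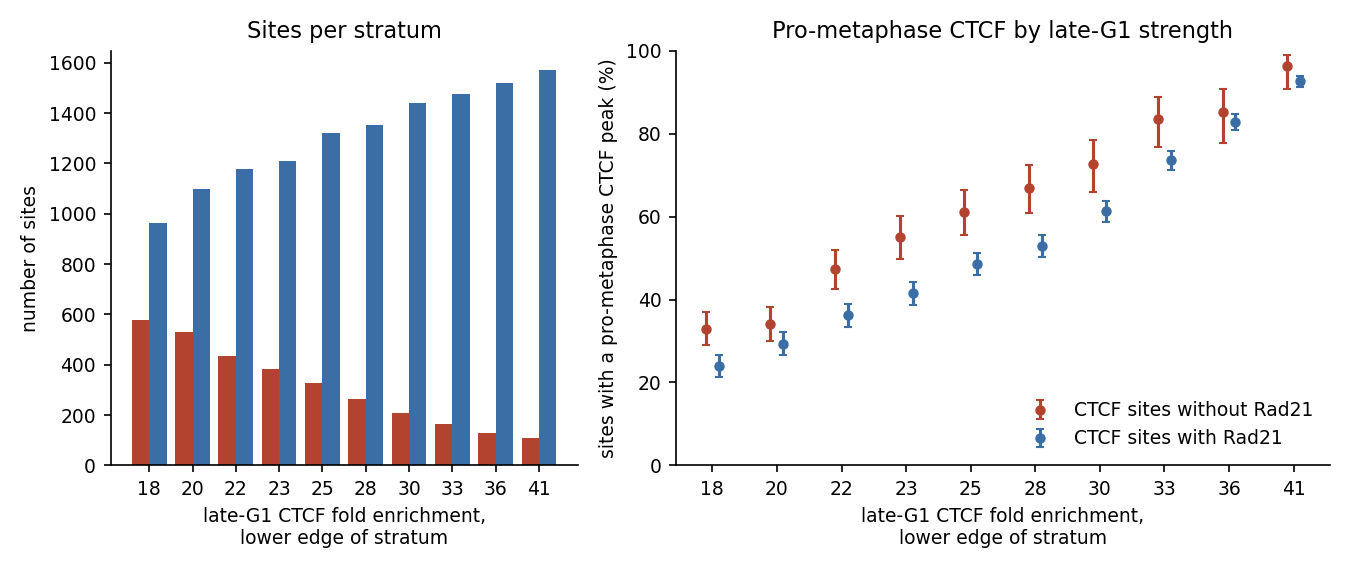
Number of sites (left, bars) and share of sites with a pro-metaphase CTCF peak in percent (right, points with exact 95% binomial intervals) in 10 strata of late-G1 CTCF fold enrichment, red for CTCF sites without Rad21 and blue for those with late-G1 Rad21. Red points lie above blue points in all 10 strata, from 32.9% and 23.9% in the weakest to 96.3% and 92.7% in the strongest, while the number of red sites declines from 578 to 109.

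The share was higher at the sites without Rad21 in each of the 10 strata. In the fifth stratum, with fold enrichments from 25.4 to 27.6, 199 of 326 sites without Rad21 (61.0%, 55.5 to 66.4) and 641 of 1321 comparison sites (48.5%, 45.8 to 51.3) had a pro-metaphase peak. The intervals of the 2 groups overlapped in the second stratum, with 34.1% and 29.3%, in the ninth, with 85.2% and 82.8%, and in the strongest. Where a pro-metaphase peak was called, its median fold enrichment was 14.8 at sites without Rad21 and a weighted 13.1 at comparison sites.

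The surroundings moved with this difference. Among sites with at most 2 other late-G1 CTCF summits within 100 kb, 53.3% of the sites without Rad21 and 34.3% of the weighted comparison sites had a pro-metaphase peak, a difference of 18.9 points (14.1 to 23.7). Among sites with at least 10 others the shares were 52.7% and 48.3%, and the difference was 4.40 points (0.46 to 8.34). The share of the sites without Rad21 lay between 52.5% and 54.4% in all 5 classes of density, while that of the comparison sites lay between 34.3% and 48.7%. Whether these differences between classes go beyond counting error was not tested.

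Sites that had no pro-metaphase peak were nearly all called at the next stage. In ana/telophase 3076 of the 3126 sites (98.4%, 97.9 to 98.8) had a CTCF peak, beside a weighted 94.2% of the comparison sites and 82.9% of all late-G1 CTCF peaks. The difference was 4.16 points (3.43 to 4.90), and it shrank to 0.39 points among sites at or above the 75th percentile of fold enrichment, to 1.43 points without weighting and to 2.57 points with strata of the asynchronous fold enrichment. By first stage of calling, 1664 sites appeared in pro-metaphase, 1414 in ana/telophase and 48 in early G1. The strongest site with no pro-metaphase peak was chr13:55736068-55736504, with a fold enrichment of 42.0 in ana/telophase. In the early, mid and late-G1 lists it had 52.8, 50.3 and 45.4, and 29.4 in asynchronous cells. The next was chr11:72861116-72861437, with 27.1, 35.6, 28.7, 44.1 and 36.0 in the same order. The next sites of this kind, chr10:75918069-75918355, chr8:113579963-113580332 and chr5:145759383-145759706, had late-G1 values of 43.5, 42.9 and 40.3.

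Sites without Rad21 lay in denser surroundings of CTCF. The median distance from summit to the nearest other late-G1 CTCF summit was 8.04 kb (7.47 to 8.64) at sites without Rad21 and a weighted 10.7 kb at comparison sites. Within 2 kb of another CTCF summit lay 549 sites (17.6%, 16.2 to 18.9) beside 13.8% of the weighted comparison sites, and within 20 kb lay 74.5% beside 67.7%. The median number of other late-G1 CTCF peaks within 100 kb was 6 and 5. These values describe close neighbours and sparse regions alike, since 785 of the sites without Rad21 (25.1%) and 3777 of the comparison sites (28.8%, weighted 31.4%) had neither another late-G1 CTCF summit nor a further late-G1 Rad21 summit within 20 kb.

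**Figure D2:**
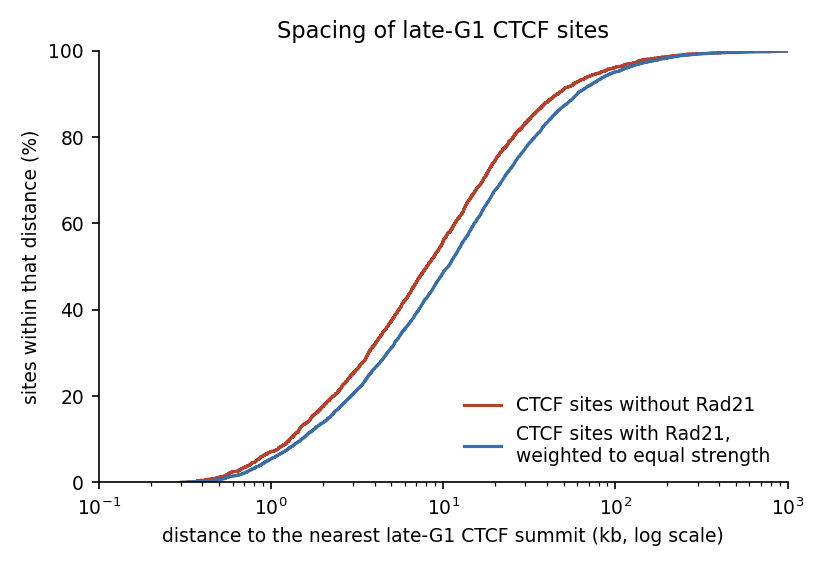
Cumulative share of sites (percent) by distance to the nearest other late-G1 CTCF summit (kb, log scale), red for CTCF sites without Rad21 and blue for sites with Rad21 weighted to equal strength. The red curve lies to the left of the blue one, with medians of 8.04 and 10.7 kb.

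Rad21 peaks were often called nearby although not at the site. The median distance to the nearest late-G1 Rad21 summit was 17.8 kb (16.7 to 18.9), with the middle of the sites between 6.53 and 42.7 kb (interquartile range). Of the 3126 sites, 93 (2.98%) had a late-G1 Rad21 summit within 1 kb, 1665 (53.3%) within 20 kb and 2844 (91.0%) within 100 kb. The nearest further late-G1 Rad21 summit of a comparison site, other than its own, was at a weighted median of 19.5 kb. The next cohesin peak was thus 17.8 kb away from a site without Rad21 and 19.5 kb away from a site that had its own.

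For most sites without Rad21 the nearest other strong CTCF peak had Rad21, but a neighbour without Rad21 was more common there than at comparison sites. The nearest other strong CTCF peak was itself without Rad21 at 766 of the 3126 sites (24.5%, 23.0 to 26.1), beside 2392 of the 13127 comparison sites (18.2%, weighted 17.3%), a difference of 7.17 points from the weighted share (5.47 to 8.86). Where that neighbour lay within 2 kb, the shares were 37.2% (31.9 to 42.7, 328 sites) and a weighted 15.9% (13.2 to 18.5). Beyond 50 kb they were 19.3% (16.3 to 22.6) and a weighted 14.2% (12.8 to 15.6). Peaks this close can share fragments of chromatin, so they are not independent.

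The share of strong peaks without Rad21 differed between chromosomes. It was lowest on chromosome 1, where 151 of 1195 strong peaks (12.6%, 10.8 to 14.7) had none, and highest on chromosome 5, with 273 of 1108 (24.6%, 22.1 to 27.3). On the X chromosome it was 23.3% (18.7 to 28.3, 74 of 318), and the other 17 chromosomes lay between 14.7% and 21.0%.

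More than 100 kb from the nearest Rad21 summit of any list lay 240 of the 3126 sites (7.68%), of which 125 (52.1%, 45.6 to 58.6) had a pro-metaphase CTCF peak and 28 (11.7%, 7.89 to 16.4) lay in a loop anchor. The strongest of the 240 was the site chr12:70461631-70461966 named above, 214 kb from the nearest summit and yet in a loop anchor. The next 4 by strength were chr14:60883737-60884078 (late-G1 fold enrichment 40.0, 171 kb from Rad21), chr12:90540474-90540838 (38.4, 149 kb), chr5:50868174-50868531 (37.1, 261 kb) and chr9:12692368-12692727 (36.8, 701 kb). These 5 had pro-metaphase fold enrichments of 23.4, 12.2, 32.5, 31.8 and 29.0. The latter 4 were in no loop anchor, and those at chr12:90540474-90540838 and chr5:50868174-50868531 had a boundary within 20 kb.

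Domain boundaries were about as common at sites without Rad21 as at comparison sites. A late-G1 boundary, the start or end of a domain in 10 kb bins, lay within 20 kb of the summit at 1066 of the 3126 sites (34.1%, 32.4 to 35.8), beside a weighted 35.3% (34.3 to 36.3) and 31.2% of all late-G1 CTCF peaks. The difference was −1.19 points, with an interval from −3.12 to 0.74 that holds 0. With outermost domains only it was 1.63 points, and with strata that also held CTCF density equal, added after the data had been seen, it was 1.65 points. In the earlier stages the shares were 14.3% and 13.1% (pro-metaphase), 25.6% and 25.1% (ana/telophase), 32.3% and 32.6% (early G1), and 33.4% and 35.3% (mid G1). The intervals of all 5 differences hold 0. Where the nearest further late-G1 Rad21 summit lay beyond 100 kb, the late-G1 shares were 25.9% and a weighted 37.7%. That difference was −11.8 points (−17.9 to −5.60), while in each nearer class of distance the interval held 0.

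A neighbour with Rad21 can lie at the same boundary, so isolated sites were also compared. Isolated sites had no other late-G1 CTCF summit and no late-G1 Rad21 summit, other than that of the site's own peak, within 20 kb. Of the 785 isolated sites without Rad21, 217 (27.6%, 24.5 to 30.9) had a late-G1 boundary within 20 kb, beside a weighted 32.6% (30.8 to 34.4) of the 3777 isolated comparison sites. The difference was −4.94 points (−8.54 to −1.33). Over the alternatives it ran from −8.40 points (−13.6 to −3.25), with isolation within 40 kb, to 0.23 points (−2.75 to 3.22), in the other direction, with outermost domains only. It was −6.94 points (−10.9 to −3.00) with boundaries within 40 kb and −1.35 points (−4.50 to 1.80) with boundaries within 10 kb. Among sites at or above the 75th percentile of fold enrichment it was −1.25 points (−8.68 to 6.19). The latter 2 intervals hold 0. At earlier stages the difference was −2.41 points (−4.48 to −0.34) in pro-metaphase and −2.56 points (−5.53 to 0.40) in ana/telophase, where the interval holds 0. It was −7.51 points (−10.9 to −4.16) in early G1 and −6.94 points (−10.4 to −3.43) in mid G1.

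Of the 13553 late-G1 boundaries, 294 had a site without Rad21 as their single CTCF peak within 20 kb and no Rad21 peak of any list there, and 1638 had a comparison site as their single CTCF peak. Among the 294 boundaries, 52 (17.7%, 13.5 to 22.5) had a boundary within 20 kb in the pro-metaphase list, 125 (42.5%, 36.8 to 48.4) in that of ana/telophase, 206 (70.1%, 64.5 to 75.2) in that of early G1 and 227 (77.2%, 72.0 to 81.9) in that of mid G1. Among the 1638 boundaries the shares were 20.0% (18.1 to 22.0), 51.3% (48.9 to 53.8), 79.8% (77.8 to 81.7) and 87.1% (85.3 to 88.6). The boundaries with a single CTCF site and no Rad21 were thus less often found before late G1, with intervals that did not overlap from ana/telophase to mid G1. These shares were not weighted by strength.

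Loop anchors separated the groups by much more than boundaries did. In late G1, 1378 of the 3126 sites without Rad21 (44.1%, 42.3 to 45.8) lay in a loop anchor, beside a weighted 68.8% (67.9 to 69.8) of the comparison sites and 54.7% of all late-G1 CTCF peaks. The difference was −24.7 points (−26.7 to −22.7). It was −17.0 points with anchors widened by 10 kb, and the other alternatives lay between that value and −27.9 points. The share at sites without Rad21 was below that of the comparison sites in each stratum of strength, with 42.4% and 65.1% in the weakest and 56.9% and 79.5% in the strongest.

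The gap was small in ana/telophase and wide from early G1 on. In pro-metaphase only 5 of the 3126 sites and 14 comparison sites lay in one of the anchors of the 84 loops called, and in ana/telophase the shares were 5.25% (4.49 to 6.09) and a weighted 6.76%, a difference of −1.51 points (−2.45 to −0.58). In early G1 they were 32.1% (30.4 to 33.7) and 50.3%, and in mid G1 40.4% (38.6 to 42.1) and 64.7%. The number of loops called grew from 908 in ana/telophase to 7029, 9714 and 11340 in the later lists. A gap in points is limited where few loops were called.

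**Figure D3:**
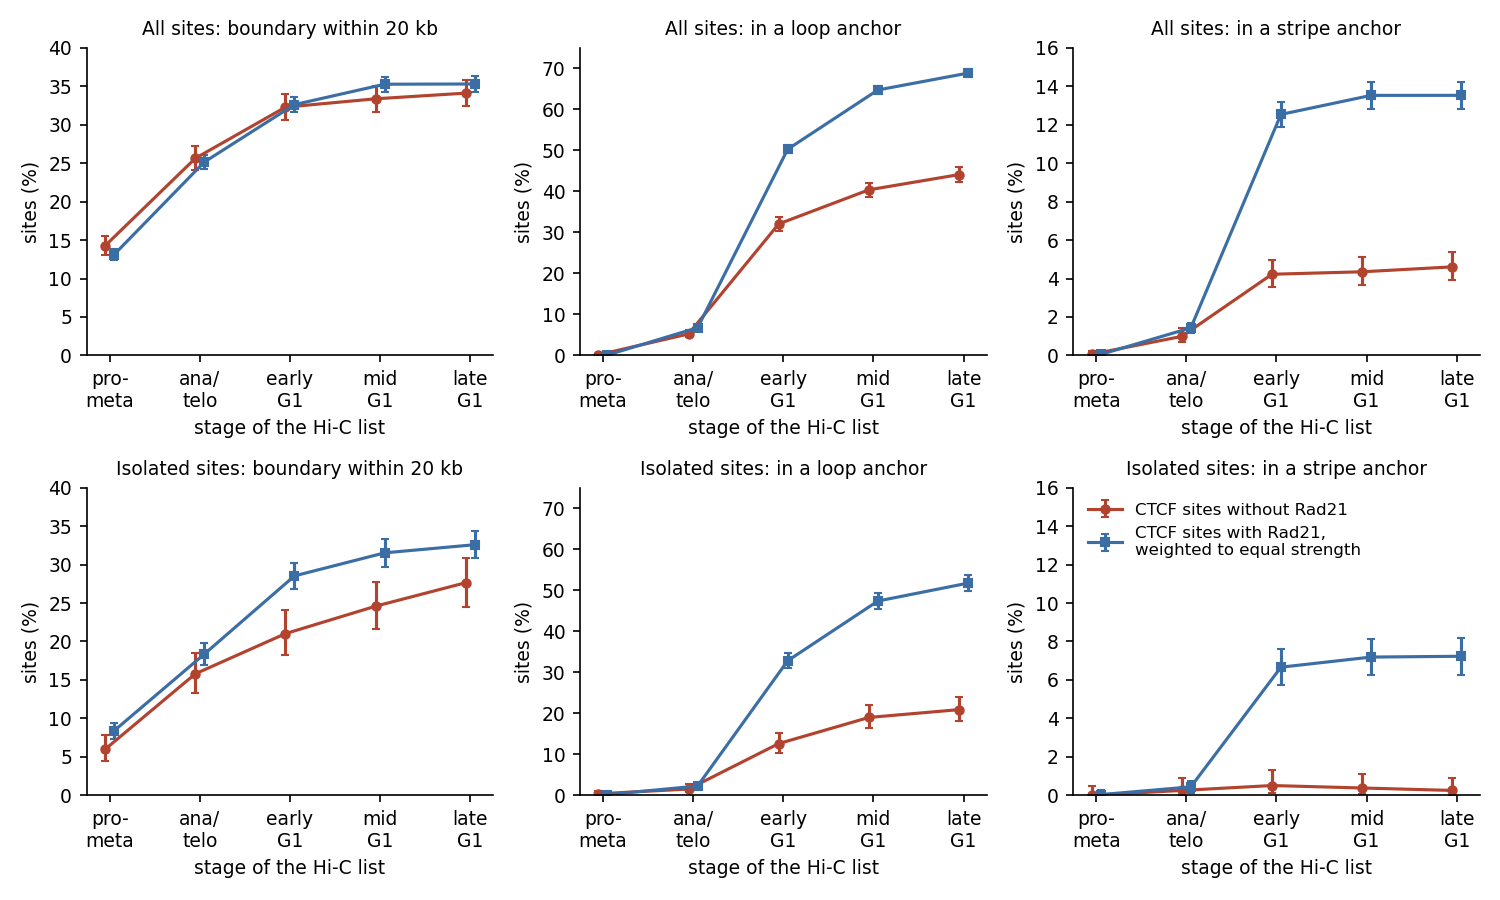
Share of sites (percent) with a boundary within 20 kb, in a loop anchor and in a stripe anchor in the 5 Hi-C stages, for all sites (top) and isolated sites (bottom). Red marks CTCF sites without Rad21 with exact 95% binomial intervals, and blue marks sites with Rad21 weighted to equal strength with 95% intervals from counting error. The boundary curves of all sites run together, whereas the red curves of loop and stripe anchors lie slightly below the blue ones in ana/telophase and far below them from early G1 on, with 44.1% and 68.8% of all sites in a loop anchor in late G1.

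Most of the anchors that held a site without Rad21 also held a Rad21 peak from elsewhere in the anchor. The late-G1 list has 22680 anchors, of which 1899 held a site without Rad21. Of these, 1403 (73.9%) held a late-G1 Rad21 peak and 1438 (75.7%) a Rad21 peak of any list. The remaining 461 anchors held no Rad21 peak, and in 292 of them the site was the single CTCF peak. The share of all anchors that held Rad21 was not counted here. Whether anchors with such a site are rich or poor in Rad21 can therefore not be read from these values.

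Among isolated sites the gap was at least as wide. Of the 785 isolated sites without Rad21, 164 (20.9%, 18.1 to 23.9) lay in a late-G1 loop anchor, beside a weighted 51.7% (49.8 to 53.6) of the isolated comparison sites. The difference was −30.8 points (−34.3 to −27.4). It was −38.8 points among sites at or above the 75th percentile of fold enrichment. It was −26.5 points with widened anchors.

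The share in loop anchors also moved with the distance to the nearest further Rad21 summit. Of the sites without Rad21, 438 of 622 (70.4%, 66.7 to 74.0) lay in an anchor where a late-G1 Rad21 summit was within 5 kb. From 5 to 10 kb the share was 66.7%, from 10 to 20 kb 44.3%, from 20 to 50 kb 29.7%, from 50 to 100 kb 26.7%, and beyond 100 kb 12.8% (9.10 to 17.2, 36 of 282). The comparison sites, unweighted, had shares of 86.0%, 82.7%, 75.7%, 65.4%, 62.4% and 43.7% in the same classes. With weights for strength the difference was −15.3 points (−19.2 to −11.4) within 5 kb and −33.7 points (−37.4 to −30.0) from 20 to 50 kb. Sites without Rad21 were thus below comparison sites in every class of distance.

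**Figure D4:**
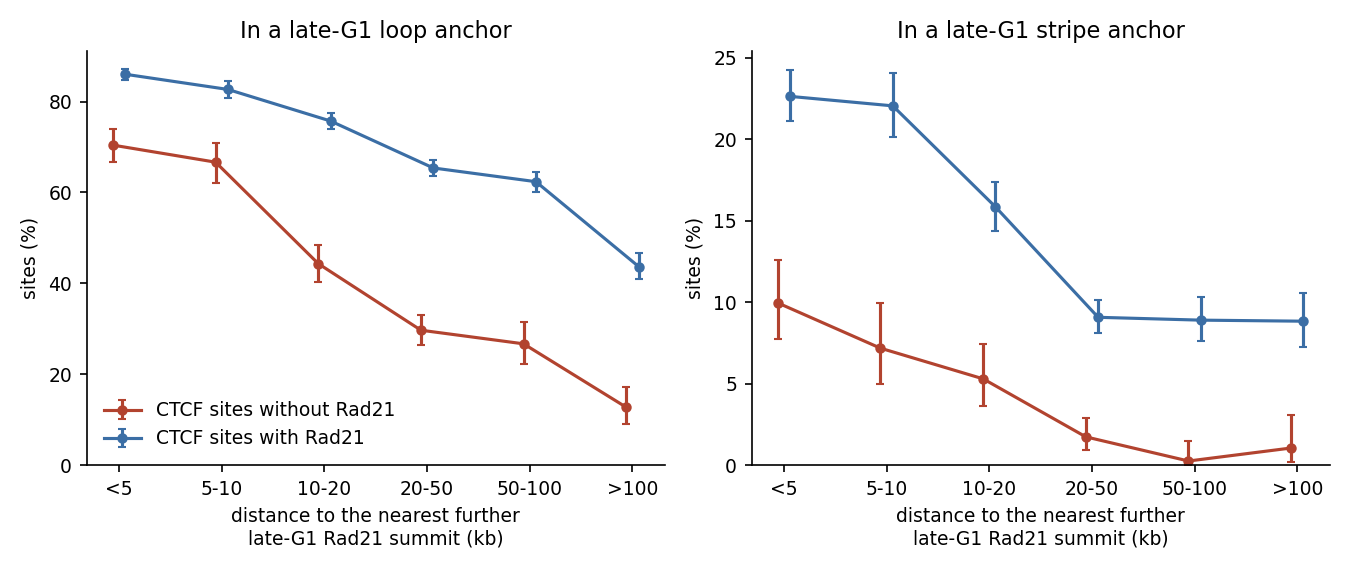
Share of sites (percent, exact 95% binomial intervals) in a late-G1 loop anchor (left) and in a late-G1 stripe anchor (right) by the distance from the site to the nearest late-G1 Rad21 summit other than one of its own peak (kb), red for CTCF sites without Rad21 and blue for unweighted sites with Rad21. Red points lie below blue points in all 6 classes, from 70.4% and 86.0% in a loop anchor within 5 kb to 12.8% and 43.7% beyond 100 kb.

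Sites in no anchor lay either inside loops or beyond them, and both shares were larger at sites without Rad21 than at comparison sites. They are shares of all sites and make up the whole with the share in anchors. Together they therefore repeat the anchor difference, and only their split is further information. Between the 2 anchors of a late-G1 loop, but in no anchor, lay 551 sites (17.6%, 16.3 to 19.0) beside a weighted 7.96% of the comparison sites. Outside any loop lay 1197 sites (38.3%, 36.6 to 40.0) beside a weighted 23.2%.

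The 292 anchors with a single CTCF site and no Rad21 belonged to 289 loops and 246 different sites. Their median ratio of observed to expected contacts was 2.99 (2.87 to 3.16), beside 3.54 (3.48 to 3.59) in the 4714 loops with an anchor whose single CTCF peak was a comparison site, both unweighted. Counted per anchor and weighted to the strength of the sites without Rad21, the median of the comparison anchors was 3.60. The median size of the loops was 150 kb (130 to 160) and 180 kb (180 to 180). The median expected contacts were 8.47 and 7.23, and the median observed contacts were 26.1 (24.1 to 27.6) and 27.6 (27.2 to 28.0). Whether the difference in ratio goes with loop size was not tested. The partner anchor held a late-G1 CTCF peak in 204 of 292 cases (69.9%, 64.2 to 75.1) and a late-G1 Rad21 peak in 179 (61.3%, 55.5 to 66.9), beside 81.4% (weighted 81.1%) and 74.1% (weighted 73.2%). Both anchors were of this single-site kind at 6 of the 292 anchors. In the early-G1 list, 166 of the 289 loops (57.4%, 51.5 to 63.2) were already called, beside 56.0% (54.6 to 57.4) of the others. In ana/telophase the shares were 5.88% (3.46 to 9.25) and 3.42% (2.92 to 3.97), and in mid G1 71.6% (66.1 to 76.8) and 78.0% (76.8 to 79.2), all unweighted.

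**Figure D5:**
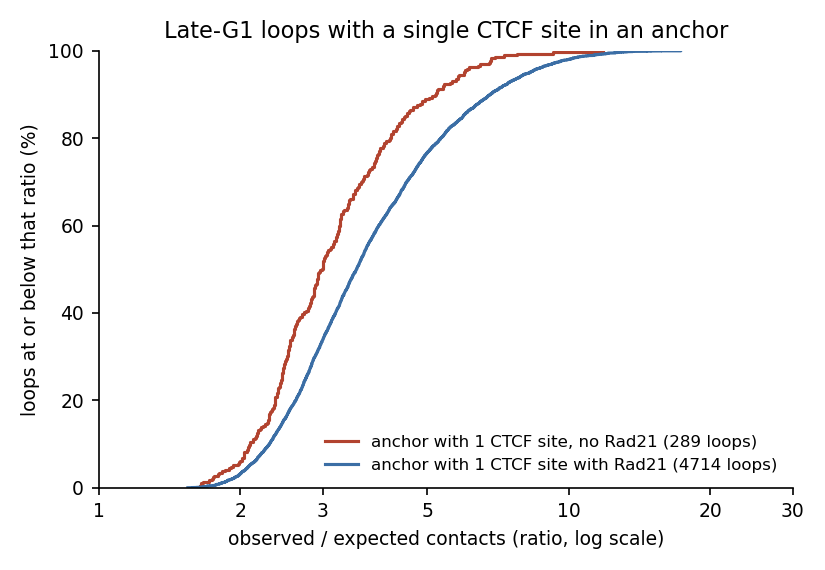
Cumulative share of late-G1 loops (percent) by ratio of observed to expected contacts (log scale), red for the 289 loops with an anchor whose single CTCF peak had no Rad21 and blue for the 4714 loops, unweighted, with an anchor whose single CTCF peak overlapped Rad21. The red curve lies to the left, with medians of 2.99 and 3.54.

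Single loops of this kind reached higher ratios. The site chr1:24685249-24685625, with a late-G1 fold enrichment of 49.2, was the single CTCF peak in the anchor chr1:24670001-24690000 of a loop of 50 kb with a ratio of 11.9, and its partner anchor held neither CTCF nor Rad21. That loop was also called in all 4 earlier stages, pro-metaphase included. It had 261 observed and 22.0 expected contacts, beside a median of 26.1 observed contacts in the 289 loops. Why its signal was this far from the others was not tested. The site chr10:87317185-87317481, with a fold enrichment of 27.3 and the nearest Rad21 summit 172 kb away, anchored a loop of 470 kb with a ratio of 9.28, whose partner anchor at chr10:87760001-87790000 held 2 CTCF peaks and Rad21. The sites chr14:51422892-51423273, chr5:46059624-46059903 and chr13:22020443-22020761 anchored loops of 280, 190 and 90 kb with ratios of 7.75, 7.28 and 6.98. Rad21 summits of some list lay 3.4, 89.3 and 45.6 kb from these 3 sites, so the first had Rad21 close by although not in its anchor. The partner anchors of these 3 loops held CTCF and Rad21.

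Stripe anchors showed the lowest share relative to comparison sites. In late G1, 144 of the 3126 sites (4.61%, 3.90 to 5.40) lay in the anchor of a stripe, beside a weighted 13.5% (12.8 to 14.2) of the comparison sites and 8.89% of all late-G1 CTCF peaks. The difference was −8.92 points (−9.94 to −7.89), and it was −5.56 points for stripes of at least 300 kb, an alternative added after the data had been seen. In ana/telophase the shares were 0.99% and 1.43%, in early G1 4.22% and 12.5%, and in mid G1 4.35% and 13.5%. Among isolated sites without Rad21, 2 of 785 (0.25%, 0.03 to 0.92) lay in a late-G1 stripe anchor, beside a weighted 7.23% (6.27 to 8.19) of the isolated comparison sites, a difference of −6.98 points (−8.25 to −5.70). With a further Rad21 summit within 5 kb the share was 9.97% of the sites without Rad21 and a weighted 21.6% of the comparison sites, a difference of −11.6 points (−14.7 to −8.50).

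Of the 1745 late-G1 stripes, 130 had a site without Rad21 in their anchor, and 115 of those anchors also held a Rad21 peak of some list. In 11 stripes such a site was the single CTCF peak of an anchor with no Rad21, whereas a comparison site was the single CTCF peak in 564. The strongest of the 11 was chr7:88490034-88490358, with a late-G1 fold enrichment of 36.1 and a stripe of 200 kb with a deposited strength of 2.67. It was followed by chr11:77845528-77845928, with 35.4, 180 kb and 2.86. The next was chr16:14159928-14160243, with 34.6, 280 kb and 2.98. Rad21 summits of some list lay 5.41, 12.4 and 35.6 kb from these 3 sites, outside the stripe anchors.

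The 499 strong sites that met Rad21 only in another list than late G1 were close to the sites without Rad21 in the Hi-C lists. In late G1, 47.1% (42.6 to 51.6) of them lay in a loop anchor, 4.01% (2.47 to 6.12) in a stripe anchor and 32.9% (28.8 to 37.2) within 20 kb of a boundary. Each of these intervals holds the share at the sites without Rad21. A pro-metaphase CTCF peak was called at 55.7% (51.2 to 60.1), and these values are unweighted.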

How the data were processed

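Deposited lists of ChIP-seq peaks and Hi-C features were used, with groups taken from the sample titles. Per the submitters' processing notes, ChIP-seq processing used MACS2 2.1.0, Bowtie 0.12.7, bedtools 2.27.1 and SAMtools 1.7 and Hi-C processing HiC-Pro and Bowtie2, with build mm9; which tools called domains, stripes and loops is not stated there or in the labels. The 12 deposited peak lists hold 1 list per target and group, merged from downsampled replicates per the names of the peaks. Peaks carry the authors' deposited fold enrichment, a ratio, and their deposited −log10 p; the smallest −log10 p was 4.05 in the Rad21 lists and 8.17 in the late-G1 CTCF list. The deposited loop lists give an observed and an expected contact signal and a p-value per loop, per the file headers, and the deposited stripe lists give strength as a ratio. The normalization of contacts is likewise not stated. Depth per sample is unknown.

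Overlaps (1 bp) and summit distances came from scripts in Python 3.11.15 with pandas 2.3.3, SciPy 1.17.1 and NumPy 2.4.6, and Matplotlib 3.10.9 drew the figures. Interval functions and weighting were tested on simulated data and passed 8 of 8 tests. Boundaries were distinct domain starts and ends. Comparison shares called weighted were weighted to the 10 strata of late-G1 fold enrichment of the sites without Rad21, and differences are those sites minus weighted comparison sites. Weighted medians used the same weights.

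The sites, the comparison and the lists were chosen with earlier results of these data known. Sites were named by rule: the 5 strongest in all 6 CTCF lists, without a pro-metaphase peak, and more than 100 kb from Rad21; the 5 single-site loop anchors with the highest ratio; the 3 strongest single-site stripe anchors; and 3 on each side of both thresholds. Alternatives were the 75th percentile, strength by −log10 p (for strong peaks and strata alike), no weighting and no Rad21 within 1 kb. Further ones were an overlap of 50%, summits within 100 bp, distances of 10 and 40 kb, and outermost domains. The other planned ones were anchors widened by 10 kb, loops with a p-value of at most 0.1 times the highest deposited one, and stripes of at least 100 kb. A last planned one took the late-G1 Rad21 list alone, which left 3625 sites without Rad21.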

Additional observations from a re-analysis of the deposited data

How the results depend on the processing

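Of 98 values under alternatives, 65 stayed within the interval of the main value and 31 fell outside it. Another 2 reversed a main value whose interval did not hold 0. In all 8 changed sign. Besides the 2 reversed ones these were 3 for boundaries and 3 for asynchronous CTCF, whose main intervals hold 0. The number of sites has no interval, so its values were judged by their ratio to the main one, 3 as close and 1 as moved. At or above the 75th percentile of fold enrichment 873 sites had no Rad21, with medians of 7035 bp to the nearest CTCF and 15863 bp to the nearest late-G1 Rad21 summit; without sites within 1 kb of Rad21 they were 8821 and 19144 bp. The other values are differences in percentage points, sites without Rad21 minus weighted comparison sites. At the 75th percentile they were 0.39 for ana/telophase CTCF, −26.9 for loop anchors, −11.2 for stripe anchors and, at isolated sites, −1.25 for boundaries, −38.8 for loop anchors and −10.1 for stripe anchors. With strength by −log10 p they were 17.2 for pro-metaphase CTCF and −7.78 for stripe anchors. Without weighting they were −4.05 (reversed) for pro-metaphase CTCF, 1.43 for ana/telophase CTCF, −27.5 for loop anchors, −10.3 for stripe anchors and, at isolated sites, −35.1 for loop and −8.43 for stripe anchors. With an overlap of 50% of both peaks they were 11.8 for pro-metaphase and −0.99 for asynchronous CTCF, and with summits within 100 bp −0.30 for asynchronous CTCF. With strata of asynchronous fold enrichment, an alternative added later, they were 5.80 for pro-metaphase and 2.57 for ana/telophase CTCF. Strata that also held CTCF density, added later, gave 1.65 (sign changed) for boundaries and −27.9 for loop anchors. With outermost domains only they were 1.63 (sign changed) for boundaries and 0.23 (reversed) at isolated sites, and boundaries within 10 kb gave 0.16 (sign changed). With anchors widened by 10 kb they were −17.0 for loop anchors and −26.5 at isolated sites. With isolation within 40 kb the stripe difference was −5.53, and with stripes of at least 300 kb, added later, it was −5.56 and −4.13 at isolated sites. The planned minimum of 100 kb left out no stripe, since the shortest was 130 kb. The cause of these shifts was not tested.

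No paired analysis was possible because each list pools the replicates of its group, and leaving out a replicate was not possible for the same reason. The rule on Rad21 rests on lists of unequal length and unknown depth, and what deeper Rad21 data would call at these sites was not tested.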

Other observations

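Some sites without Rad21 followed each other without a strong peak with Rad21 between them. Taking the strong late-G1 CTCF peaks in order along each chromosome, 1873 of the 3126 sites (59.9%) stood alone between strong peaks with Rad21, 398 runs held 2 in a row, 93 held 3, 28 held 4 and 12 held 5; 1 run held 6. The longest, named after its values were seen, was chr8:127263214-127558872, where 11 late-G1 CTCF peaks and no Rad21 peak of any list lay in 296 kb. Of its 6 sites, with fold enrichments from 19.4 to 34.1, 3 had a pro-metaphase CTCF peak, 2 lay in a loop anchor and 2 had a boundary within 20 kb. A compact run of 5 was chr7:149900582-149924047, where 5 CTCF peaks lay in 23.5 kb with no Rad21. Of these, 4 had a pro-metaphase peak, none lay in a loop anchor and all 5 had a boundary within 20 kb. In a span this short a single boundary can be counted at all 5 sites.

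The number of Rad21 lists in which a strong site was found did not order the pro-metaphase CTCF share. Weighted to the strength of the sites without Rad21, the share was 53.2% at sites in 0 lists, 45.2% in 1, 41.5% in 2, 39.0% in 3, 39.6% in 4, 53.2% in 5 and 72.4% in all 6. The weighted share in a late-G1 loop anchor increased over the same classes, from 44.1% in 0 lists through 56.1%, 57.9%, 60.7%, 70.7% and 80.0% to 93.1% in all 6. The last class has 427 sites, and membership in the pro-metaphase Rad21 list, which has 596 peaks, decides it in part.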
